A study of Mus musculus with 96 samples.

Results

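The mitochondrial ribosome (mitoribosome) translates the few proteins encoded by the mitochondrial genome, all of them parts of the respiratory chain and the ATP synthase. It is built from ribosomal RNAs transcribed in the mitochondrion and from proteins that are encoded in the nucleus, made in the cytosol and imported. The genes of these proteins carry the symbols Mrpl for the large subunit, which forms peptide bonds, and Mrps for the small subunit, which reads the mRNA. Proliferating T cells are known to build up mitochondria and their translation machinery. The genes described here are those whose symbol is Mrpl or Mrps followed by a number and whose TPM (reads per gene length, as a share of the cell) was above 0 in at least 5 cells. They were 77 of the 24057 genes of the table, 48 of the large and 29 of the small subunit. No gene with such a symbol fell below the rule, and Mrps30, the one read in the fewest cells, was detected in 25. All 77 passed the filters on low values, which left 11980 genes for tests of expression and 7843 genes for tests of spread.

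Single-cell RNA-seq had been performed on EL4 cells, a mouse T-lymphoma line, after 5 days of retroviral infection with GFP and an shRNA. WT cells carried an shRNA against luciferase (cultures shLuc #1 and shLuc #2) and CTCF-KD cells an shRNA against Ctcf (cultures shCTCF #1 and shCTCF #2), so that all 4 cultures were infected. GFP-positive cells were captured on the Fluidigm C1 system with 1 circuit per culture, and 24 cells of each were sequenced. Cultures with the number 1 formed experiment 1 and those with the number 2 formed experiment 2. Culture, circuit and condition cannot be told apart within an experiment. The sources do not settle whether shCTCF #1 and shCTCF #2 differ in their hairpin.

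After removal of 1 cell with fewer than 3000 genes detected, 24, 23, 24 and 24 cells were kept. Wherever 4 values follow each other, they are for shLuc #1 and shLuc #2 (WT) and then for shCTCF #1 and shCTCF #2 (CTCF-KD). Cultures were the replicates, 2 per condition. With 2 against 2, the smallest two-sided p of an exact permutation test is 0.333, so single values are given without a test. Median recovered reads per cell were 247586, 230477, 234260 and 131098. The median number of genes detected (TPM above 0) was 4771, 4635, 6172.5 and 5656, and so higher in both CTCF-KD cultures although shCTCF #2 had the fewest reads. Mean TPM of Ctcf was 60.3, 37.1, 16 and 44.9. The log2 change of Ctcf was -1.85 in experiment 1 and 0.27 in experiment 2, so in these cells its mRNA was not lower in the culture labelled shCTCF #2. Ctcf was read in 19, 17, 16 and 20 cells, and its log2 change over the 4 cultures was -0.79 ± 0.66 (SE). The study had also assayed the knockdown by qPCR and Western blotting, and reported less Ctcf mRNA and protein in both shCTCF #1 and shCTCF #2. Those assays are not analysed here. All 8 T cell markers (Cd3e, Cd3d, Cd3g, Thy1, Lck, Lat, Ptprc and Cd28) had reads in these cells. Their summed TPM was 8533, 8753, 6821 and 6696, lower in both CTCF-KD cultures, and its part in the results below was not tested. The markers did not move together. Cd3d, Cd3g and Lck were below both WT cultures in both CTCF-KD cultures, and Lat was above them (786, 542, 1151 and 919 TPM). Cd3e, Thy1, Ptprc and Cd28 overlapped between conditions. The summed TPM of myeloid, erythroid, fibroblast or epithelial markers was at most 8.69. Of the latter, Lyz2, Cd14, Hbb-bs, Dcn, Epcam, Krt8 and Krt18 were at 0 in every cell kept.

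Mitoribosomal protein genes were expressed at moderate to high levels in EL4 cells. Levels can be compared between genes on the TPM scale, which is per length. The average of the 4 culture means ranged from 6.03 TPM (Mrps30) to 821 TPM (Mrpl33), with a median of 115 TPM over the 77 genes, compared to 17.2 TPM over all genes tested. In all, 45 of the 77 genes were above 100 TPM, 13 were above 300 TPM and 2 were under 20 TPM. The median was 127 TPM for the large and 94.6 TPM for the small subunit. The order of levels in shLuc #1 and shLuc #2 had a Spearman correlation of 0.86 across the 77 genes, which are not independent replicates. Although the products are parts of 1 particle, mRNA levels were far from equal, and the 10 genes with the highest levels made up 40.8% of the summed TPM.

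**Figure D1:**
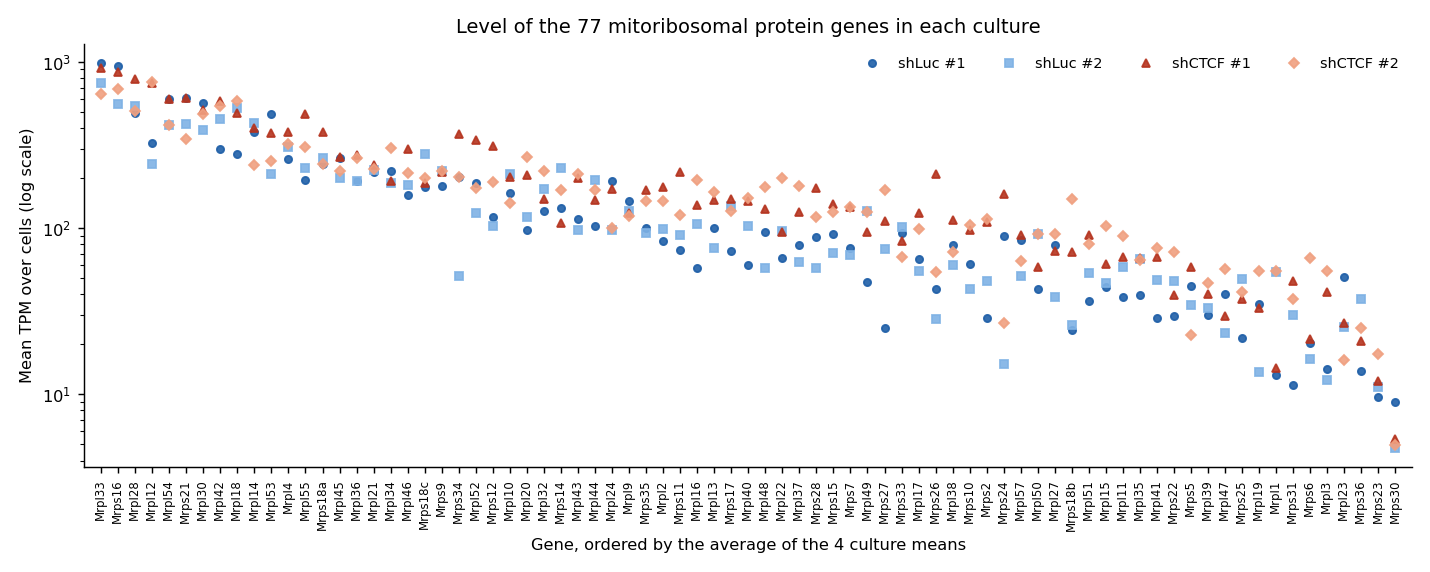
Mean TPM over the cells of each culture (vertical axis, log scale) for the 77 mitoribosomal protein genes, ordered by the average of the 4 culture means. Levels fall from 821 TPM for Mrpl33 to 6.03 TPM for Mrps30, and the 4 points of a gene show the spread over cultures.

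The highest levels were those of Mrpl33, a homolog of bacterial L33, with mean TPM of 982, 746, 918 and 639. Mrps16, a homolog of bacterial S16, had mean TPM of 950, 555, 874 and 690. Both were detected in every cell kept, and their order was not the same in all cultures, so they did not differ beyond their spread. Mrpl28 (491, 543, 788 and 508 TPM), Mrpl12 (327, 243, 751 and 755 TPM) and Mrpl54 (595, 415, 594 and 420 TPM) followed, and their ranges over cultures overlapped.

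At the low end, Mrps30 had mean TPM of 8.96, 4.78, 5.42 and 4.96 and was read in 5, 4, 11 and 5 cells. The protein is placed in the large subunit by structures in spite of its symbol. Mrps23, a protein particular to mitochondria, had mean TPM of 9.67, 11.1, 12 and 17.6. Mrps36, with mean TPM of 13.7, 37.5, 20.8 and 25.2, has also been assigned to the 2-oxoglutarate dehydrogenase complex. Mrpl23, near the exit of the peptide tunnel, had mean TPM of 50.7, 25.3, 26.9 and 16.2. Mrpl3, close to the peptidyl transferase centre, had mean TPM of 14.3, 12.2, 41.3 and 55.6. The ranges of the last 3 genes overlapped, and Mrps30 lay below each of the other 4 in every culture.

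The 77 genes lie on 17 chromosomes. In 33 of them (42.9%), a protein-coding gene on the opposite strand starts within 1000 bases of the start of the gene in the GENCODE M21 annotation of GRCm38, compared to 18% of the genes tested with coordinates. Mrps18b, for instance, starts 45 bases from Ppp1r10, Mrps18c 29 bases from the DNA helicase gene Helq, and Mrps12 172 bases from Sars2, the mitochondrial seryl-tRNA synthetase. Exons of 32 members overlap another annotated gene, a protein-coding one for 23. Among the 32 are Mrpl12 and Mrpl33, which overlap non-coding entries, and Mrpl14 and Mrpl53, which overlap protein-coding ones. Whether counting used the strand is not given in the sources used here, so reads of such genes cannot be told apart from those of the overlapping gene. Pseudogenes that carry a member's symbol in their name are annotated for Mrpl23, Mrpl48 and Mrps36, 5 in all. The values of these 3 genes are uncertain for that reason as well. Pseudogenes with other names are not counted here.

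Promoters of mitochondrial genes in the nucleus are known for sites of GABPA, an ETS factor, of NRF1 and of YY1. RefSeq promoters (GRCm38.p6, from 250 bases before to 50 after the start) were found for 68 of the 77 genes, 74 promoters in all, and 10 letter patterns were searched on both strands. The ETS pattern CCGGAAGT was present in 16.2% of these promoters, in 8.36% of 11568 promoters of tested genes and in 3.89% of all 32851 promoters. The shorter pattern CGGAAG, which lies within it, was present in 52.7%, 31.25% and 16.9%. A pattern of NRF1 was present in 17.6%, 10.2% and 4.60%, and the palindrome within it in 4.05%, 2.12% and 0.971%. A pattern of YY1 was present in 6.76%, 2.10% and 0.852%. The E-box CACGTG, present in 9.46% of promoters of these genes and 9.90% of those of tested genes, was at a like share in both, and so was CCAAT, with 40.5% and 37.8%. TATAAA was present in 6.76% and 7.19%. Neither pattern of the CTCF core (a shorter one, and a longer one within it) was found in the 74 promoters, with 0.882% and 0.294% in promoters of tested genes. Of the 74 promoters, 46 held neither the longer ETS pattern nor the NRF1 or the YY1 pattern. These are matches of letters, not sites of binding. The 150 bases before the start are shown for the 3 genes in which they hold a match to the ETS, NRF1 or YY1 pattern and overlap no exon of a protein-coding gene, so that ETS and NRF1 matches can be seen in place, with matches in capitals. This choice was made after sequences were seen.
Mrpl48 (chr7:100583131-100583280, strand -, ETS pattern on the reverse strand): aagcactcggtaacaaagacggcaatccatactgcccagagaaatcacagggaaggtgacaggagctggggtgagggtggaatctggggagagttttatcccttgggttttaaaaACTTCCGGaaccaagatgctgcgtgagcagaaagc
Mrps22 (chr9:98601680-98601829, strand -, ETS pattern): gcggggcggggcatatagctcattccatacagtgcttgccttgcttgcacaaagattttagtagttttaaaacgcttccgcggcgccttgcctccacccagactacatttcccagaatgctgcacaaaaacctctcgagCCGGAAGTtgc
Mrpl45 (chr11:97315566-97315715, strand +, NRF1 pattern at 2 places): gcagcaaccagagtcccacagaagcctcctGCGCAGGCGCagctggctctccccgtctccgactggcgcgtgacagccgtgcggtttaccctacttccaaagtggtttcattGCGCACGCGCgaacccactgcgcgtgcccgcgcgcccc

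Which of these genes differed between WT and CTCF-KD cells was compared first by expression, with limma on log2(mean TPM + 1) of each culture and Benjamini-Hochberg adjustment over all 11980 genes. Mitoribosomal protein genes were mostly higher in the cultures labelled CTCF-KD, but none passed the threshold. The median log2 change was 0.49 over the 77 genes, compared to 0.04 over all genes tested. It was 0.56 in experiment 1 (all genes tested, 0.04) and 0.41 in experiment 2 (all genes tested, 0). Of the 77 genes, 64 were higher over the 4 cultures (52.1% of all genes tested were), and 49 were higher in both experiments (30.1% of all genes tested). Both CTCF-KD cultures lay above both WT cultures for 36 genes (19.9% of all genes tested) and below them for 2, Mrpl9 and Mrps33 (16.9%). At an adjusted p under 0.05, 0 of the 77 genes were called, as were 0% of all genes tested, with none below an adjusted p of 0.585. Without adjustment, 12 genes were higher with a p under 0.05 (4.79% of all genes tested) and 0 were lower (2.82%). With the experiment as a block, 28 were higher at an unadjusted p under 0.05 (7.66% of all genes tested), and 0 were called.

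**Figure D2:**
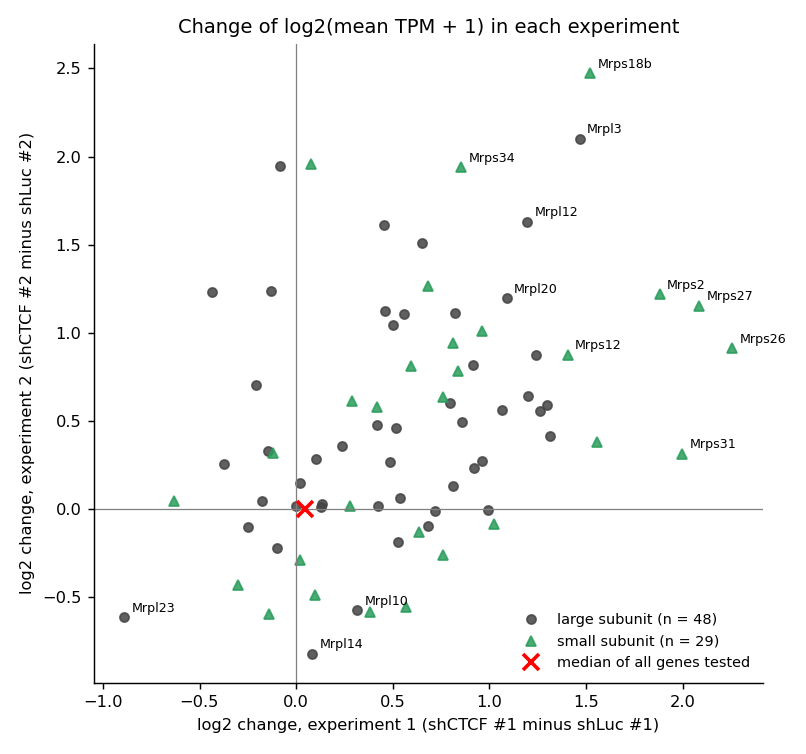
Difference of log2(mean TPM + 1) between CTCF-KD and WT cultures in experiment 1 (horizontal axis) and experiment 2 (vertical axis) for the 48 large and 29 small subunit genes, with the median of all genes tested as a cross. Of the 77 genes, 49 lie at the upper right, above 0 in both, and 5 at the lower left.

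The summed TPM of the 77 genes per cell gave the same picture. Its mean was 11985 ± 1970 and 11284 ± 2310 in the WT cultures and 16269 ± 2785 and 14148 ± 3327 in the CTCF-KD cultures (SD over 24, 23, 24 and 24 cells). The cultures did not overlap in their means, although their cells did, and the ratio of CTCF-KD to WT was 1.31, with 1.36 in experiment 1 and 1.25 in experiment 2. Of all recovered reads, these genes took 0.656% and 0.589% in the WT cultures and 0.953% and 0.795% in the CTCF-KD cultures. For comparison, the summed TPM of the 80 cytosolic ribosomal protein genes, which serve the ribosome outside the mitochondrion, had a ratio of 0.891, with 0.890 and 0.892 in the single experiments. Its means overlapped between conditions, with 101377 and 74192 in WT and 90262 and 66213 in CTCF-KD cultures.

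The large and the small subunit were set side by side. The sum of the large subunit had a ratio of 1.30 and that of the small subunit 1.33, and the small to large ratio of summed mean TPM was 0.435 and 0.398 in WT and 0.460 and 0.394 in CTCF-KD cultures, which overlapped. The median log2 change was 0.48 for the large subunit, with 41 of 48 genes higher, and 0.70 for the small subunit, with 23 of 29 higher. This difference of medians, -0.22, was -0.24 with Mrps30 and Mrps18a counted in the large subunit, where structures place them. It was -0.03 for the log2 ratio of the sums and ranged between -0.16 and -0.01 when single cultures were left out, but was -0.34 in cells with at least 4000 genes and -0.50 in those with 5000 to 6000.

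The largest statistic was that of Mrpl12 (ENSMUSG00000039640.7; GRCm38 chromosome 11, 120484613 to 120489065), which forms the flexible stalk where translation factors bind. Its mean TPM was 327 ± 304, 243 ± 265, 751 ± 324 and 755 ± 407 (SD over 24, 23, 24 and 24 cells). In single cells the median TPM was 333, 171, 714 and 802, the lowest was 0, 0, 147 and 0, and the highest was 948, 791, 1456 and 1453. Both CTCF-KD cultures were higher and the ranges of cells overlapped. The log2 change was 1.41 ± 0.31 (SE), with 1.20 and 1.63 in the single experiments (limma adjusted p = 0.585). In the 34 cells with at least 5000 and under 6000 genes detected, a range chosen after the data had been seen so that both conditions held cells of like gene number, it was 0.53. Its partner Mrpl10, the base of that stalk, had mean TPM of 163, 211, 203 and 141, with a log2 change of -0.13 ± 0.36 (SE). With the mean over cells of log2(TPM + 1) the change of Mrpl10 was 1.38, and the gene was read in 16 of 24, 16 of 23, 24 of 24 and 21 of 24 cells.

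Mrps18b (ENSMUSG00000024436.16; chromosome 17, 35910379 to 35916389) had the largest log2 change of the 77 genes. Its mean TPM was 24.4 ± 59.8, 26.2 ± 69.1, 72 ± 86.2 and 150 ± 129 (SD). It was read in 10 of 24, 7 of 23, 16 of 24 and 21 of 24 cells, with a median of 0 in both WT cultures and of 57 and 111 TPM in the CTCF-KD cultures. The log2 change was 2.0 ± 0.52 (SE), with 1.52 and 2.47 in the single experiments, and 2.32 in cells with 5000 to 6000 genes. Mrps18b is 1 of 3 paralogs of bacterial S18, of which structures place Mrps18a in the large subunit. Its paralogs did not have this pattern. Mrps18a had mean TPM of 242, 265, 376 and 242 (log2 change 0.25 ± 0.35, SE), and Mrps18c 176, 280, 188 and 200 (-0.20 ± 0.36, SE). The conditions overlapped for both, and the difference between paralogs was not tested.

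Mrps2 (ENSMUSG00000035772.11; chromosome 2, 28468066 to 28471178), a homolog of bacterial S2, had mean TPM of 28.6, 47.9, 108 and 113. It was read in 9, 10, 21 and 19 cells, and its log2 change was 1.55 ± 0.45 (SE). In cells that had reads of it, the difference of mean log2 TPM, which is another scale, was 0.66. Mrpl20 (ENSMUSG00000029066.12; chromosome 4, 155802878 to 155809975), a homolog of bacterial L20, had mean TPM of 97.6, 116, 209 and 268. It was read in at least 19 cells of each culture, and its log2 change was 1.14 ± 0.34 (SE) over all cells, while the difference of mean log2 TPM in cells with reads of it was 1.26.

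Mrpl3 (ENSMUSG00000032563.16; chromosome 9, 105053239 to 105079888) was among the lowest in level and among the highest in change. It was read in 6 of 24 cells of shLuc #1 (exact 95% binomial interval 9.77% to 46.7%) and in 5 of 23 cells of shLuc #2 (7.46% to 43.7%). For the CTCF-KD cultures, the counts were 20 of 24 (62.6% to 95.3%) and 17 of 24 (48.9% to 87.4%). The intervals cover counting error only. The log2 change was 1.78 ± 0.58 (SE), with 1.47 and 2.10 in the single experiments. It was 1.05 in cells with 5000 to 6000 genes, and the difference of mean log2 TPM in cells with reads of Mrpl3 was 0.55. Mrps12 (ENSMUSG00000045948.8; chromosome 7, 28739641 to 28741820), a protein of the decoding centre, had mean TPM of 117, 103, 311 and 189 and a log2 change of 1.14 ± 0.38 (SE).

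**Figure D3:**
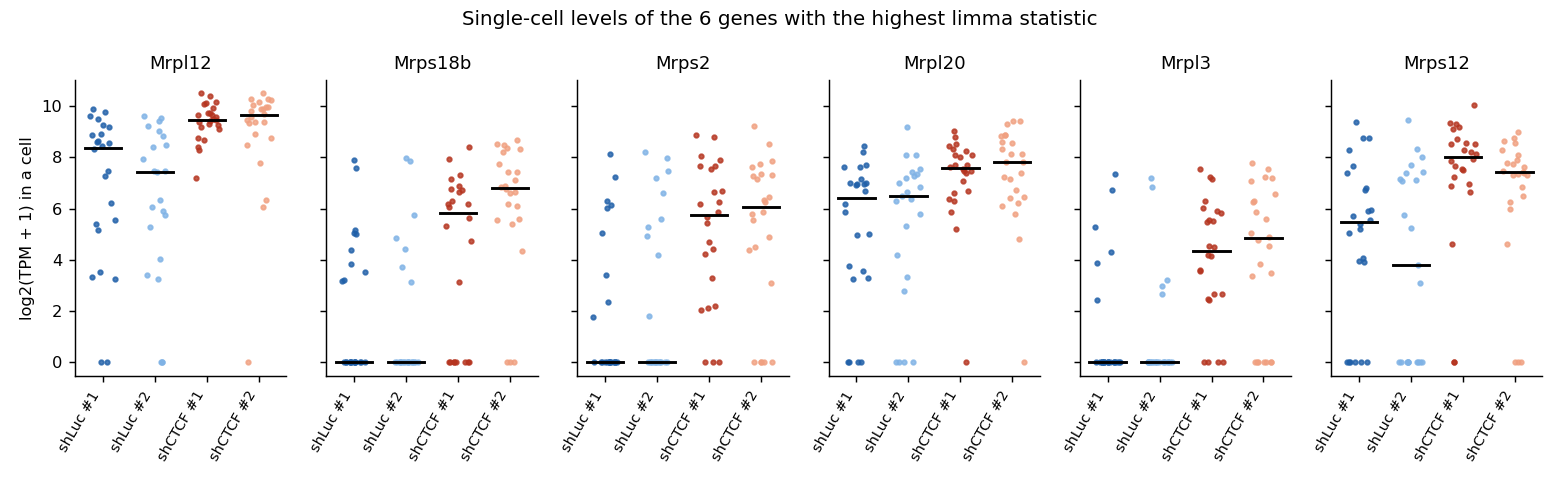
log2(TPM + 1) in each kept cell (points) and the median of each culture (bars) for the 6 genes with the highest limma statistic. For Mrps18b, Mrps2 and Mrpl3, the WT medians are at 0 and the CTCF-KD medians above it, whereas for Mrpl12 and Mrpl20 most WT cells have reads as well.

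The other members with an unadjusted p under 0.05 were Mrpl37, Mrpl43, Mrpl48 and Mrpl55, which have no bacterial counterpart, Mrps27, which has none either, and Mrps7, a homolog of bacterial S7. Of these, Mrps27 was highest in change, with mean TPM of 25.1, 75.2, 110 and 169 and a log2 change of 1.62. For Mrps7 (75.9, 69.4, 134 and 134 TPM), exons overlap the genes Gga3 and Mif4gd.

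At the other end, Mrpl23 was the 1 member whose log2 change was below -0.5. Its mean TPM was 50.7 ± 54.3, 25.3 ± 27, 26.9 ± 36.5 and 16.2 ± 25.6 (SD), and the conditions overlapped. The log2 change was -0.75 ± 0.64 (SE), with -0.89 and -0.61 in the single experiments. Mrpl14, at the face between the subunits, had mean TPM of 380, 426, 403 and 241 and a log2 change of -0.37 ± 0.36 (SE). Mrps33, a protein particular to mitochondria, had 93.1, 102, 84.2 and 67.1 TPM and a log2 change of -0.37 ± 0.38 (SE). Mrps14, a homolog of bacterial S14, had 131, 230, 107 and 171 TPM (-0.37 ± 0.44, SE), and Mrpl9, a homolog of bacterial L9, had 146, 127, 123 and 118 TPM (-0.18 ± 0.34, SE). None of these 5 genes had an unadjusted p under 0.05.

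Cells were then compared by the number of members with reads. Of the 77 genes, a median of 55 (range 39 to 68) and 53 (36 to 69) was detected per cell in the WT cultures, and of 70 (50 to 75) and 66.5 (14 to 76) in the CTCF-KD cultures. The shCTCF #2 cell with 14 had 3150 genes and 41591 reads. The 24, 23, 24 and 23 cells with at least 80000 reads were then thinned to 80000, which left out that shCTCF #2 cell. The medians of members were 49, 45, 66 and 64, so the higher number in CTCF-KD cells was present at equal reads. It moved with the number of all genes detected, however. Per 1000 genes detected in a cell, the median number of members was 11, 11.2, 11.2 and 12.2, and within a culture both numbers had a Pearson correlation of 0.79, 0.83, 0.64 and 0.79 over cells, which share their library and depth. Cells of like gene number were therefore compared. Among cells with 5000 to 6000 genes (7, 6, 8 and 13 cells), the medians were 61, 57.5, 71 and 66. Among those with 4000 to 5000 (14, 8, 2 and 5 cells) they were 51, 49, 54 and 60, and among those with 6000 to 7000 (2, 3, 14 and 5 cells) 66, 68, 71 and 73. In each of these ranges both CTCF-KD medians were higher, and the cells overlapped.

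**Figure D4:**
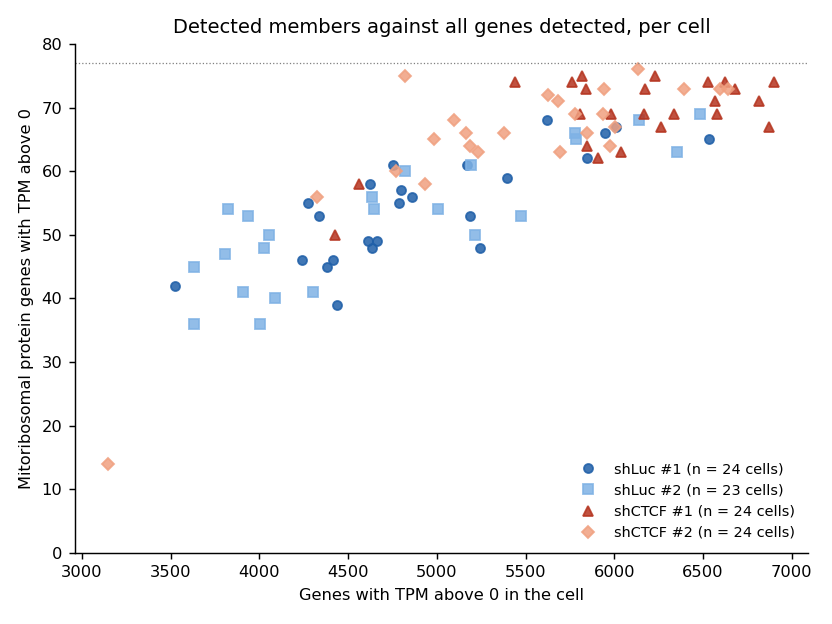
Number of mitoribosomal protein genes with TPM above 0 (vertical axis, dotted line at 77) against the number of all genes with TPM above 0 (horizontal axis) in each cell of the 4 cultures. Both numbers increase together, and shCTCF #1 and shCTCF #2 cells lie mostly at the upper right, with 1 cell of shCTCF #2 at 14 members and 3150 genes.

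Gene by gene, the share of cells with reads was compared by limma on its logit. At an adjusted p under 0.05, 0 of the 77 genes were called, with a smallest adjusted p of 0.151, and so were 0% of all genes tested. At an unadjusted p under 0.05, 34 genes were detected in a higher share of CTCF-KD cells (16.5% of all genes tested) and 1, Mrpl53, in a lower share (1.63%). Mrpl53 was read in 24 of 24, 23 of 23, 23 of 24 and 22 of 24 cells. Thinning left out the shCTCF #2 cell with 41591 reads. After thinning, 76 of the 77 genes had a higher share in CTCF-KD cells (75.6% of all genes tested), the exception being Mrpl23. At an unadjusted p under 0.05, 52 had a higher share (18.7%) and 0 a lower one (1.32%), while 0 were called. In cells with 5000 to 6000 genes, 20 were higher at an unadjusted p under 0.05 (5.63% of all genes tested) and 0 were lower (2.9%). Of these, Mrps15 and Mrps17 passed the adjusted threshold in limma with Benjamini-Hochberg adjustment, as did 0.167% of all genes tested. Many shares in this range rest on few cells and are tied between cultures. Detection was not compared to genes of like level, and the median level was 115 TPM for the 77 genes and 17.2 TPM over all genes tested.

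Expression was also compared on scales that treat cells without reads of a gene differently. The mean over cells of log2(TPM + 1), in which cells without reads count more, gave a median log2 change of 1.48 over the 77 genes and 0.23 over all genes tested. On that scale 71 members were higher (67.5% of all genes tested), 45 of them with an unadjusted p under 0.05 (15.1%), and 0 were called, with a smallest adjusted p of 0.0562 (0.367% of all genes tested were called higher). In cells with reads of the gene, the median was 0.44, compared to -0.05 over the 9813 genes with values, with 63 members higher (47%) and 7 at an unadjusted p under 0.05 (2.29%). In cells with 5000 to 6000 genes, 65 members were higher (51.6% of all genes tested) and 10 had an unadjusted p under 0.05 (5.1%). On none of these scales was expression compared to genes of like level.

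Cell-to-cell variation was compared within each culture as the SD over cells of log2(TPM + 1). The SD was lower in CTCF-KD cells for 65 of the 77 genes (70.9% of the genes tested for spread), and the median difference was -0.68, compared to -0.23. By limma, 32 members had a lower SD at an unadjusted p under 0.05 (12.8%) and 0 a higher one (2.46%). At an adjusted p under 0.05, 0 members were called, with a smallest adjusted p of 0.0512, whereas 0.625% of the genes tested were called lower and 0.0383% higher. The SD was lower for 44 of 48 genes of the large and 21 of 29 of the small subunit. The SD of shCTCF #2 includes the cell with 14 members detected. Mrpl12, for instance, was at 0 in that cell and at 6.05 or more on the log2(TPM + 1) scale in every other cell of shCTCF #2. Its SD was 0.74 in shCTCF #1 and 2.22 in shCTCF #2. The SD without that cell was not computed.

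The SD of Mrpl4, a protein that lines the peptide tunnel, was 3.54, 3.72, 2.26 and 1.96, and the conditions did not overlap. Its difference was -1.52 ± 0.31 (SE; limma adjusted p = 0.0512), with reads in 19, 18, 23 and 23 cells. Its level was not alike on that scale, since the mean of log2(TPM + 1) was higher by 1.76 in CTCF-KD cultures, and median TPM was 135, 146, 318 and 303, while mean TPM was 261, 306, 379 and 320. For Mrpl43 the SD was 3.32, 3.14, 1.6 and 1.85 (difference -1.51 ± 0.34, SE). For Mrps17, a homolog of bacterial S17, it was 3.49, 3.36, 2.23 and 1.49 (-1.56 ± 0.35, SE), and the gene was read in 12, 17, 23 and 24 cells. These 3 genes had reads in more cells of the CTCF-KD cultures, whose part in the SD was not tested gene by gene. The 3 genes at the other end were Mrpl53, with an SD of 1.24, 1.72, 1.91 and 2.41, Mrps6, with 2.61, 2.57, 2.85 and 3.43, and Mrpl3, with 2.37, 2.16, 2.37 and 2.92. Their differences were 0.68, 0.55 and 0.38, and none had an unadjusted p under 0.05.

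**Figure D5:**
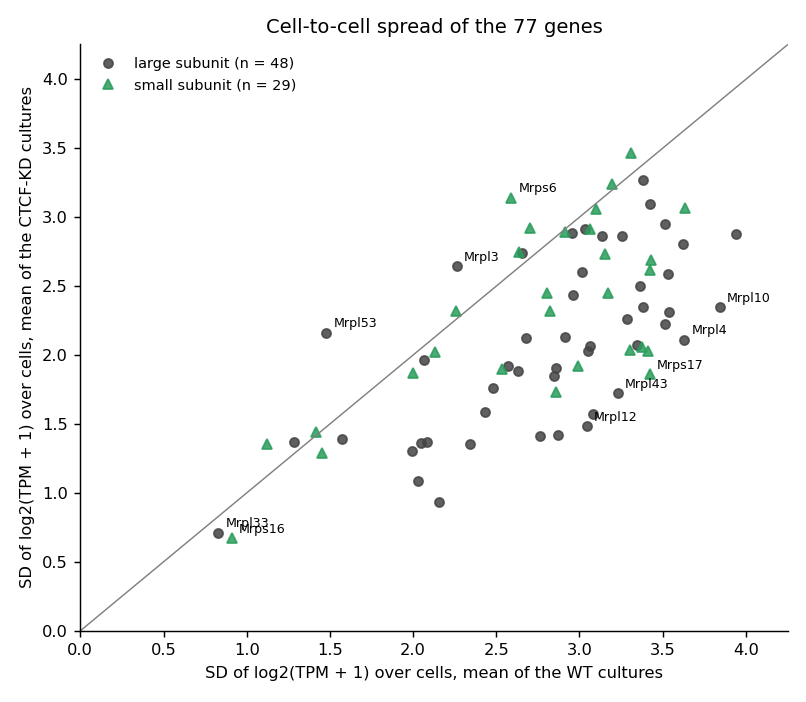
SD over cells of log2(TPM + 1), as the mean of both CTCF-KD cultures (vertical axis) against the mean of both WT cultures (horizontal axis), for the 77 genes, with the line of equal SD. Of the 77 points, 65 lie below the line, and Mrpl53, Mrps6 and Mrpl3 lie above it.

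Compared to genes of like mean in the same culture, however, little of this difference was left. After subtraction of the running median of the SD over genes ordered by mean, 42 of the 77 genes were lower (47.7% of the genes tested for spread), and the median difference was -0.03, compared to 0.01. By subunit, 31 of 48 large subunit genes were lower (median -0.06) and 11 of 29 small subunit genes (median 0.15), which was not tested. On that scale 6 members were lower at an unadjusted p under 0.05 (3.19%), namely Mrpl14, Mrpl28, Mrpl35, Mrpl41, Mrps17 and Mrps5, and 4 were higher (2.81%), namely Mrpl23, Mrpl53, Mrps28 and Mrps7. The CV of linear TPM, which does not use the log scale, was lower for 76 of 77 genes (80.2%). By limma with Benjamini-Hochberg adjustment it fell in 10 of them (3.62% of the genes tested), Mrpl3, Mrpl12, Mrpl35, Mrpl41, Mrpl55, Mrps11, Mrps12, Mrps18b, Mrps31 and Mrps35. The CV of Mrpl12 was 0.929, 1.09, 0.431 and 0.540 (adjusted p = 0.0226), and that of Mrps18b 2.45, 2.63, 1.20 and 0.861 (adjusted p = 0.0159). This CV was not compared to genes of like mean.

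The 77 genes were also divided by level into 3 groups, a division made after the data had been seen. The median log2 change was 0.25 in the 26 genes with the highest levels, 0.81 in the 25 in the middle and 0.52 in the 26 with the lowest. The median share of cells with reads was 89.4% (WT) and 95.8% (CTCF-KD) in the highest group, 66% and 89.6% in the middle and 60.6% and 80.2% in the lowest.

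Other genes of the pathway were taken from 5 lists of 70 symbols, of which 66 were in the table and passed the filter. Their median log2 change was 0.74, with 52 higher and 14 lower (52.1% of all genes tested were higher). At an unadjusted p under 0.05, 7 were higher (4.79%) and 0 lower (2.82%), and 0 were called. The counts of the single lists that follow are to be read against the same 52.1%. Among 7 mitoribosomal proteins with other symbols, 6 were higher. Ptcd3, an RNA-binding protein of the small subunit, had mean TPM of 56.2, 92.1, 108 and 309, and Dap3, which binds GTP in the small subunit, had 103, 108, 92.4 and 90.3. Among 24 factors of mitoribosome assembly and rRNA, 19 were higher. The RNA helicase Ddx28 had 7.55, 7.20, 39.2 and 31.5 TPM, read in 5, 3, 8 and 8 cells, and the GTPase Eral1, a chaperone of the small subunit rRNA, had 79, 68.9, 35.3 and 37 TPM (log2 change -1.01 ± 0.44, SE).

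Among 13 mitochondrial translation factors, 10 were higher. The peptide deformylase gene Pdf had mean TPM of 2.12, 4.88, 12.4 and 38.8 in 3, 3, 10 and 9 cells, and Taco1, the activator of cytochrome oxidase translation, had 27.2, 29.7, 29.3 and 21.7. Among 14 factors of mitochondrial transcription and mRNA, 12 were higher. The elongation factor Tefm had 17.2, 30.2, 42.7 and 74.2 TPM, and the transcription factor Tfb2m had 4.21, 6.90, 2.62 and 6.85. Among 8 proteases and quality factors, 5 were higher. The prohibitin Phb2 had 150, 177, 412 and 325 TPM (log2 change 1.16 ± 0.32, SE; limma adjusted p = 0.585), and the matrix protease Lonp1 had 183, 183, 142 and 104 (-0.59 ± 0.35, SE). Phb2 lay above both WT cultures in both CTCF-KD cultures and Lonp1 below them, and neither passed the adjusted threshold.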

How the data were processed

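Single-cell RNA-seq values of 96 EL4 cells in 4 cultures were used. The authors aligned reads to GRCm38 with STAR, counted unique alignments per gene with HTSeq and deposited TPM, a value per gene length and per total of the cell. Molecular identifiers are not mentioned, so reads cannot be taken as molecules. Whole reads were recovered from the steps of the TPM values (504605 of 504605 values whole within 0.001) and used for depth, thinning and RPM.

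Cells with fewer than 3000 genes were left out. Culture values were compared with limma 3.58.1 (R 4.3.3, trend, two-sided, Benjamini-Hochberg adjustment over all genes tested, threshold 0.05), with a pseudocount of 1. Tests of expression and detection used genes that exceeded 1 on the log2(TPM + 1) scale in 2 or more cells, and tests of spread those with a mean above 1. The cells of a culture are not replicates, and the cultures of a condition come from 2 knockdown experiments, so p-values measure the spread between these cultures. The number of a culture marks the experiment in the study's methods, and deviations of same-numbered cultures from the condition means had a correlation of 0.18 over 11980 genes and of 0.48 over the 77 members. The tests were checked on simulated cultures. In the final form of this check, the expression test called no changed gene at any fold used, while the spread test called most of them. The change of spread in that check was an increase of the SD, larger than the decreases reported here. It does not show which decreases the spread test can call. The final form included a draw from pooled WT cells, and the expression test called no changed gene there either. An earlier form, which drew all cultures from pooled WT cells, had given calls for expression, so the outcome depended on the form of the check.

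The genes and lists were chosen with earlier results of these data known. Named are the 5 members at each end of the order of levels, the 6 at each end of the statistic for expression, and the 3 at each end for spread. Besides, Ctcf, Mrps18a, Mrps18b, Mrps18c, Mrps30, Mrps36, Mrpl10, Mrpl12, Mrps12, Mrpl58 and both extremes of each pathway list are named. The symbol Mrpl58 is not in the table, where the gene has its older symbol Ict1. It was counted with the mitoribosomal proteins with other symbols, with mean TPM of 169, 163, 262 and 131 (log2 change 0.16 ± 0.42, SE). Other members are named where a count is listed, after their values were seen. Alternatives covered the scale, pseudocount, filters, scaling, cells, the experiment as a block and each culture left out.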

Additional observations from a re-analysis of the deposited data

Results flagged for a closer look

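In all, 11 of the named mitoribosomal protein genes, and Ctcf, had log2 changes of opposite sign in the experiments. Opposite signs were common, with 23 of the 77 members and 4609 of the 11980 genes tested, so the count is not particular to these genes. With 1 culture of each condition per experiment these differences were not tested, and small values of either sign are included. Given as experiment 2 minus experiment 1, the difference was 2.12 for Ctcf (-1.85 and 0.27 in experiments 1 and 2). It was -1.12 for Mrps36 (0.57 and -0.56), -1.11 for Mrps17 (1.02 and -0.09), -0.91 for Mrpl14 (0.08 and -0.82) and -0.89 for Mrpl10 (0.32 and -0.58). Mrpl28 had a difference of -0.78 (0.68 and -0.10), Mrps18a of -0.76 (0.63 and -0.13) and Mrps18c of -0.58 (0.10 and -0.49). These 7 genes were higher in experiment 1 and lower in experiment 2. The opposite order was found for Mrps30, with 0.68 (-0.63 and 0.04), Mrpl53, with 0.63 (-0.37 and 0.26), and Mrps16, with 0.43 (-0.12 and 0.32). For Mrpl54 the difference was 0.017, with changes of -0.0020 and 0.015.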

How the results depend on the processing

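The expression test called 0 members under every alternative run. The number higher at an unadjusted p under 0.05, 12 as reported, was 45 with the mean over cells of log2(TPM + 1), 7 in cells with reads of the gene, 28 with the replicate block and between 4 and 7 with single cultures left out. For detection, 2 members were called in cells with 5000 to 6000 genes, and between 0 and 2 with single cultures left out (Mrpl17 and Mrpl57, without shLuc #1 or without shLuc #2, where 1.94% and 1.79% of all genes were called higher). At an unadjusted p under 0.05, the number was 52 after thinning, 20 in cells with 5000 to 6000 genes and between 16 and 43 with single cultures left out. For spread, 10 members were called with the CV of linear TPM, and between 0 and 14 with single cultures left out, with 2 without shCTCF #1 (1.33% of the genes tested were called lower) and 14 without shCTCF #2 (3.24%). At an unadjusted p under 0.05, 17 were lower with a pseudocount of 10, 6 against genes of like mean and between 17 and 37 with single cultures left out. Mrpl4 (SD differences of -1.67 to -1.37), Mrpl43 (-1.63 to -1.38) and Mrps17 (-1.94 to -1.19) passed the threshold in some of these. The cells with 5000 to 6000 genes and the cells with reads of the gene were chosen after seeing the data. The block by experiment changed no other call.

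The median log2 change was 1.48 with the mean of log2 values and between 0.49 and 0.65 with single cultures left out. The large minus small difference was -0.20 with a pseudocount of 10, -0.34 in cells with at least 4000 genes, -0.50 in cells with 5000 to 6000 genes, -0.0016 in cells with reads of the gene, -0.24 with Mrps30 and Mrps18a moved, -0.034 for sums and between -0.16 and -0.013 with single cultures left out. Of 368 values of single genes for expression, 339 kept their direction and 29 did not. With the mean of log2 values, Mrps30 had 0.34, Mrpl14 0.14, Mrps18c 0.55, Mrpl9 0.86 and Mrpl10 1.38. In cells with 5000 to 6000 genes, Mrpl33 had 0.0030, Mrpl54 -0.28, Mrps30 0.27 and Mrpl9 0.16, and in cells with reads of the gene Mrpl9 had 0.15. With median-of-ratios scaling, Mrpl54 had -0.020 and Mrps36 -0.018, and with a pseudocount of 10 Mrps36 had -0.028. With single cultures left out, changes ranged from -0.42 to 0.10 for Mrpl33, -0.29 to 0.49 for Mrps16, -0.022 to 0.61 for Mrpl28, -0.25 to 0.27 for Mrpl54, -0.69 to 0.70 for Mrps36, -0.69 to 0.10 for Mrps30, -0.74 to 0.00092 for Mrpl14, -0.77 to 0.037 for Mrps14, -0.53 to 0.14 for Mrps18c, -0.065 to 0.57 for Mrps18a and -0.39 to 0.13 for Mrpl10. As log2 of the CV, differences of spread were -1.25 for Mrpl3, -0.55 for Mrpl53 and -0.69 for Mrps6, and against genes of like mean -0.14 for Mrpl3. The causes were not tested. Without shCTCF #1 the change of Ctcf was -0.07.

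With 2 cultures per condition, 0 called genes do not show that expression was alike. Values of low genes rest on few reads, above all in shCTCF #2.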
